A study of Mus musculus with 6 samples.

Results

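Tail-to-tail overlaps are stretches of exon sequence that a gene on the plus strand shares with a gene on the minus strand when the 3′ ends of the genes run into each other. They were collected from the gene annotation against which the reads of this experiment had been counted, built on the mouse assembly mm10 with Ensembl gene models. A coding gene was any gene name on the chromosomes with at least 1 row of coding sequence (CDS) and a single gene ID, and its span ran from its lowest exon start to its highest exon end. A pair was tail to tail when the plus gene both began and ended before the minus gene and the exons had at least 1 base in common. Among 22731 coding genes, 715 such pairs were found, which held 1124 shared regions out of 2002 shared by coding genes on opposite strands, each counted once per pair. The pairs brought together 1424 genes, of which 1418 had 1 partner and 6 had 2 partners.

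The cells were mTAL cells, a line immortalised after microdissection of thick ascending limb (TAL) segments of immortomouse kidneys, which after immortalisation no longer expressed the TAL markers uromodulin and NKCC2. All cells carried a lentiviral construct for GFP-tagged human uromodulin driven by the spleen focus-forming virus promoter. The transgene encoded the wild type (WT) protein in 3 libraries and the mutant isoform C150S in the other 3, and all were made at passage 3 from transduced populations grown under the same conditions. Expression values were not analysed here, so the values below describe the annotation shared by both groups. They are complete counts without replicates or a sampling error, they have no sequencing depth, and differences between them are descriptions to which no test applies.

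The 3′ end of an mRNA is set by cleavage and polyadenylation, which in mammals is guided by a hexamer, most often AATAAA or its variant ATTAAA, a short distance upstream of the cut. When neighbouring genes converge, transcripts that run past the partner's end carry sequence complementary to the partner's mRNA, usually in the 3′ untranslated region (3′ UTR). A library that does not keep the strand, such as one from the kit used here, cannot tell which of the genes gave a read that lies within such a stretch.

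Sequences are shown for pairs that hold listed kidney or endoplasmic reticulum (ER) genes, or the longest stretches coding on both strands, because they show how closely such ends are packed. All were taken from GENCODE M21 transcripts on GRCm38, the assembly that UCSC calls mm10. They are written 5′ to 3′ on the strand of the named gene. In the first set, the last 30 bases of each gene lie wholly within an exon of the partner, and capitals mark the hexamer. Pdia6, a protein disulphide isomerase, and Atp6v1c2, a subunit of the vacuolar proton pump, end 50 bases past each other. Creb3, a membrane-bound transcription factor, and Gba2, a glucosylceramidase, share 133 bases. Kdelr3, a receptor that returns escaped proteins to the ER, and Ddx17, an RNA helicase, share 33 bases.
Pdia6 (chr12:17284741-17284770, plus): tgtaacttaaaaaAATAAAtacactctaac
Atp6v1c2 (chr12:17284721-17284750, minus): ttaagttacAATAAAgtgctcagtcctgag
Creb3 (chr4:43567031-43567060, plus): gtagggtaagaAATAAAtaagtggttcctc
Gba2 (chr4:43566928-43566957, minus): atgggtataAATAAAatactcagaaaacta
Kdelr3 (chr15:79527710-79527739, plus): ttttaatgtAATAAAaaattcacaccttta
Ddx17 (chr15:79527707-79527736, minus): aggtgtgaattttttattacATTAAAactt

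In the pair of Kdelr3 with Ddx17 the final 30 bases of each gene in the deposited annotation lay almost wholly over those of the other. Each hexamer fell within that common stretch, on its own strand. With the ends of GENCODE M21, Kdelr3 and Ddx17 shared 4 bases. In Pdia6 with Atp6v1c2 both hexamers lay further apart but still within the 50 shared bases. Ddit3, which encodes the stress-induced transcription factor CHOP, and Mars, the methionyl-tRNA synthetase, also ended inside each other, but their last 30 bases held neither hexamer. In the last 50 bases Mars had one, 26 bases before its end, and Ddit3 had none.
Ddit3 (chr10:127296259-127296288, plus): catgtccagtaaagtgactttgtgtcaaca
Mars (chr10:127296221-127296250, minus): taaacaatgtaccgtctatgtgcaagccga

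The next sequences show bases that were coding on both strands, with capitals for a stop codon that lies inside the stretch. Sec24d, a cargo adaptor of the COPII coat that buds vesicles from the ER, and Mettl14, a subunit of the RNA N6-methyladenosine methyltransferase, had 16 such bases, which ended in a stop codon on each strand. This holds for the deposited annotation, whereas in GENCODE M21 the pair shared no exon base.
Sec24d (chr3:123364946-123364961, plus): tcaactgcttaacTGA
Mettl14 (chr3:123364946-123364961, minus): tcagttaagcagtTGA

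The length of the overlap varied widely among the pairs. A pair shared a median of 268 exon bases, with quartiles of 89 and 697.5 bases and a range from 1 to 3533. In total, 10 bases or fewer were shared by 41 pairs (5.73%), whereas 113 pairs (15.8%) shared more than 1000 bases. In 517 pairs (72.3%) the overlap was at least as long as 1 sequencing read. Summed over pairs the overlaps held 353323 bases, against 78205358 exon bases of all coding genes, and 350492 of the shared bases were distinct. Most pairs, 525 of 715 (73.4%), shared 1 unbroken region. The largest number of regions was 9, in the pair of Lphn1, an adhesion receptor, with Gm10644, where the minus gene crossed exons of Lphn1 that together shared 1107 bases.

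Each shared base was classed on each strand as coding, including the stop codon, when it was so in any transcript of the gene. A base that was not coding was classed as 3′ UTR, 5′ UTR or exon of a transcript with no CDS. The overlap was 3′ UTR on both strands throughout in 306 pairs (42.8%). In 305 pairs (42.7%) it held coding sequence on 1 strand at a time, and in 73 pairs (10.2%) at least 1 base was coding on both strands. The remaining 31 pairs (4.34%) shared other exon classes. These kinds differed in length. The median overlap was 114 bases for pairs that shared only 3′ UTR, 525 bases where 1 strand was coding, 251 bases where both were coding and 153 bases for the rest. Coding sequence was thus reached on at least 1 strand in 378 pairs (52.9%).

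**Figure D1:**
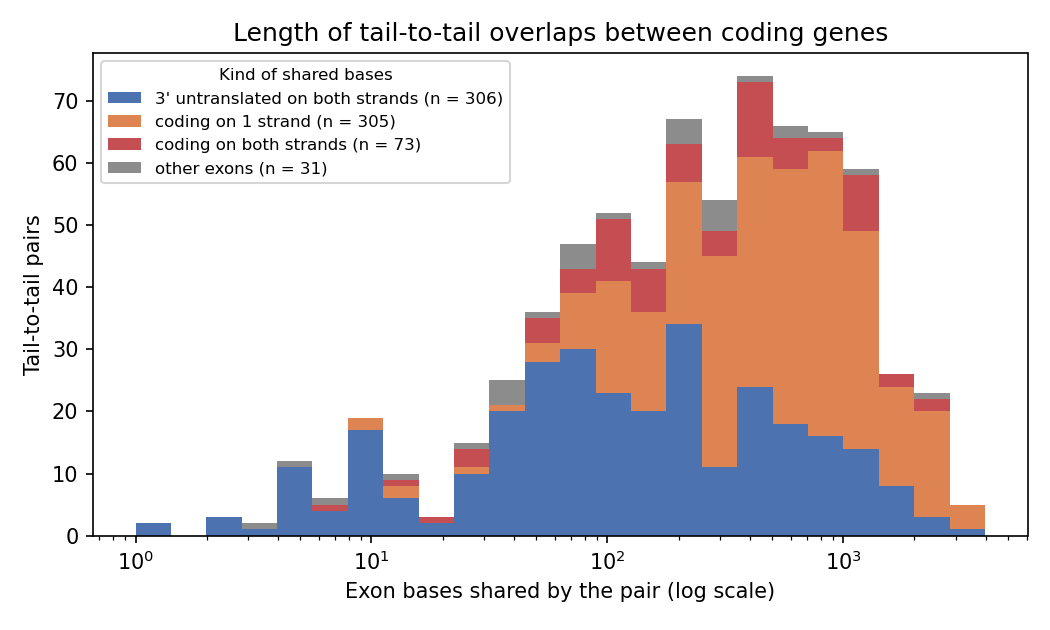
Number of tail-to-tail pairs (vertical axis) by the exon bases they share (horizontal axis, log scale), stacked by the annotation class of the shared bases. The 306 pairs that share only 3′ UTR fill most of the bars below 100 bases and have a median of 114 bases, whereas the 305 pairs with coding sequence on 1 strand have a median of 525 bases.

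Counted by bases, 56.3% of the shared sequence was 3′ UTR on both strands and 26.2% was coding on one strand against 3′ UTR on the other. Bases coding on both strands made 1.72%, and 15.0% lay, on at least 1 strand, in an exon found only in transcripts with no CDS. Among all exon bases of coding genes, 45.9% were coding and 33.7% were 3′ UTR. The other arrangements of opposite-strand genes had another makeup. The 474 head-to-head pairs, in which 5′ ends overlap, shared a median of 172 bases, of which 0.675% were 3′ UTR on both strands and 12.1% coding on both. The 162 nested pairs, in which the span of one gene lay within that of the other, shared a median of 287 bases, with 12.6% in the 3′ UTR of both and 17.6% coding on both. Any coding sequence was present at 32.4% of tail-to-tail bases, 54.5% of head-to-head bases and 61.6% of nested bases. No shared base of a tail-to-tail pair was 5′ UTR on both strands, an absence that follows largely from how such pairs are defined.

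**Figure D2:**
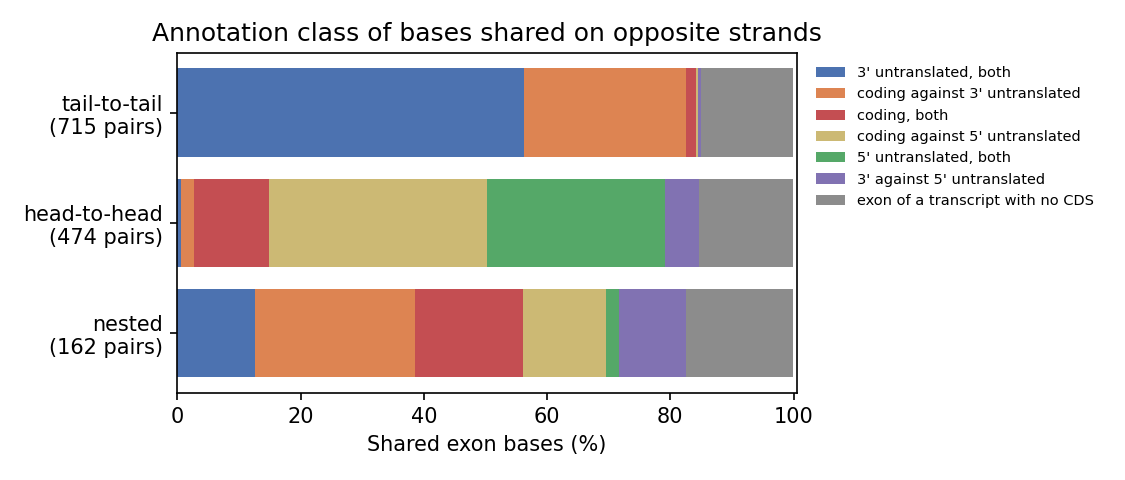
Share of the exon bases that coding genes on opposite strands have in common (horizontal axis, %), by annotation class, for tail-to-tail, head-to-head and nested pairs. The blue segment, 3′ UTR on both strands, takes 56.3% of the tail-to-tail bar, 0.675% of the head-to-head bar and 12.6% of the nested bar.

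For most genes the shared stretch was a small part of the transcript. A gene in a pair shared a median of 8.02% of its exon bases and 22.5% of its 3′ UTR. Less than 10% of the exon bases was shared in 793 genes, more than 50% in 50 genes, and the whole annotated 3′ UTR in 155 genes (11%). Whether the ends met also depended on the transcript. Every combination of a coding transcript of one gene with a coding transcript of the other overlapped in 180 pairs (25.2%), some combinations did in 502 pairs (70.2%), and none did in 33 pairs (4.62%), where the contact needed a transcript with no CDS in at least 1 of the genes.

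The longest overlap in the deposited annotation, 3533 bases, joined Nr2c2, an orphan nuclear receptor, to Mrps25, a mitochondrial ribosomal protein, and was 3′ UTR on both strands throughout. It took 38.6% of the exon bases of Nr2c2 and 53.7% of those of Mrps25. In GENCODE M21 this pair shared 4590 bases, fewer than the 4648 of Ubxn6 with Chaf1a. Gse1 with Gins2, a subunit of the GINS complex of the replication fork, shared 2758 bases, and Kif3c, a kinesin motor, with 1110002L01Rik shared 2617, again all 3′ UTR. GENCODE M21 held no pair of coding genes under the same IDs for Kif3c with 1110002L01Rik. The other 7 of the 10 longest overlaps held coding sequence on 1 strand at a time. Cntd1 and Becn1, which encodes the autophagy protein beclin 1, shared 3104 bases in 7 regions. Cd247, the T cell receptor zeta chain, and Pou2f1, a POU domain transcription factor, shared 3007 bases, 2621 of them 3′ UTR on both strands. Zfp652 with Abi3 shared 2913 bases, and Pyroxd1 with Recql, a DNA helicase, shared 2895. Chpf2, which takes part in chondroitin synthesis, shared 2466 bases with Smarcd3, a subunit of the SWI/SNF chromatin remodeller. A Smarcd3 transcript with no CDS covered all of these, and its coding transcript 642. Ctu2, which modifies tRNA wobble uridines, shared 2441 with the mechanosensitive channel gene Piezo1, and Pus3, a pseudouridine synthase, shared 2400 with Hyls1. In the last of these pairs 1450 bases were coding in Pus3, 87.1% of whose exon bases were shared, but no coding transcript of Hyls1 reached them.

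At the other extreme, Itga7, an integrin alpha chain, met Mettl7b at 1 base, and Ttc19 met Ncor1, a nuclear receptor corepressor, at 1 base. Sytl3 with Ezr, which encodes ezrin, and Treh, which encodes trehalase, with Phldb1 shared 2 bases each. Just outside the definition, 9 plus genes ended on the base directly before the first base of the next minus gene, among them Srrm2 before Tceb2 and Arsg before Wipi1. These near misses were chosen after their values were seen. In a further 44 pairs the spans of the genes overlapped tail to tail but no exon base was shared.

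In the 73 pairs that were coding on both strands, the doubly coding stretch had a median of 45 bases and a range from 4 to 625 bases, and summed to 6070 bases. It exceeded 100 bases in 18 pairs. The longest was found in Gm15557 with Gdf5, a growth factor of joint development, at 625 bases. D830015G02Rik with Myh7, the slow myosin heavy chain of heart and muscle, followed at 421 bases, and Gm17231 with Arid3b at 285. Evi5l with BC068157 had 257 such bases, Gm17484 with Bag4 had 227, Gm13271 with Gm16686 had 222, and Gm5577 with Rab7, a GTPase of late endosomes, had 204. Thra, the thyroid hormone receptor alpha, and Nr1d1, the circadian repressor REV-ERB alpha, shared 263 bases of which 200 were coding on both strands. Lphn1 with Gm10644 had 190 and Avil, an actin-binding protein, with Tsfm, a mitochondrial elongation factor, had 165. Gm and Rik names are used for predicted genes and for genes known from RIKEN cDNA clones. Genes with such names were present in 26 of the 73 pairs, and in 90 of all 715 tail-to-tail pairs (12.6%). Among all 22731 coding genes, 3136 (13.8%) had such a name. This last share counts genes and the others count pairs, so they are not directly comparable, and no difference was tested. Of the 10 pairs just given, the annotation of GENCODE M21 lacked a coding gene under the same ID for D830015G02Rik with Myh7 and for the pairs of Gm17231, Gm17484, Gm13271 and Gm5577. The stop codon of Nr1d1, in capitals, lay within the last coding exon of Thra.
Nr1d1 (chr11:98768208-98768237, minus): cgggtggacgcccagTGAcccgcccggccg

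A stop codon lay wholly within the coding sequence of the partner in 48 pairs, with 57 such codons in all. Codon positions could be set against each other at 5102 bases of 62 pairs in which each strand had 1 reading frame and a genuine stop codon (TAA, TAG or TGA). The third codon position faced the third, and the first faced the second, at 2211 of these bases (43.3%). The second faced the second, and the first the third, at 2035 (39.9%). The first faced the first, and the second the third, at 856 (16.8%). By pairs the split was more even, as 22, 18 and 20 pairs respectively held only that alignment, and the few long stretches weigh heavily in the count by bases. The mitochondrial genes mt-Nd5 and mt-Nd6, both subunits of respiratory complex I, were left out of this count and shared 14 bases, all coding on both strands.

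The hexamer AATAAA or ATTAAA was searched on each gene's own strand in the last 50 bases before its outermost 3′ end, and the occurrence nearest to the end was used. It was present at 958 of 1392 ends of genes in pairs (68.8%), at 12957 of 19722 ends of other coding genes (65.7%), and at 13915 of 21114 ends of all coding genes (65.9%). The median distance from the hexamer to the end was 17 bases in both sets, with quartiles of 14 and 21. AATAAA alone was found at 55.2% of ends in pairs and 53.8% of the others. Both ends could be read in 685 pairs, and the hexamer was present at both ends in 321 of them (46.9%), at 1 end in 302 (44.1%) and at neither in 62 (9.05%). Where both ends had it, both hexamers lay within the shared exon bases in 156 pairs (48.6%), as in the sequences of Pdia6 with Atp6v1c2 above. The GC content of bases that were 3′ UTR on both strands was 43.2%, close to the 43.8% of all 3′ UTR bases of coding genes.

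**Figure D3:**
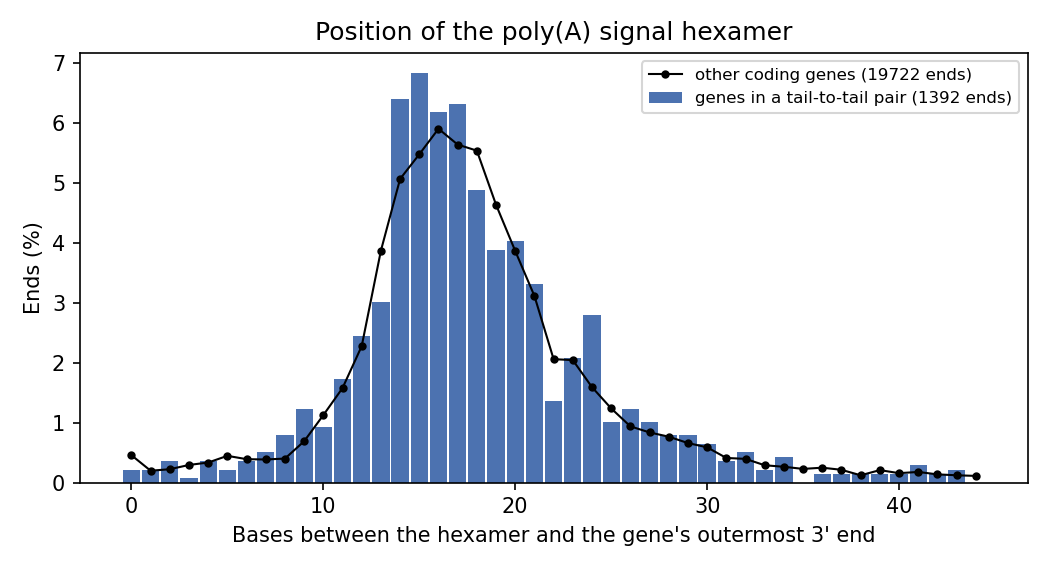
Share of gene ends (vertical axis, %) by the number of bases between the hexamer AATAAA or ATTAAA and the outermost 3′ end (horizontal axis, bases). Bars are 1392 ends of genes in tail-to-tail pairs and the black line is 19722 ends of other coding genes, and both have their median at 17 bases.

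Lists of kidney and ER genes were then read against the pairs. Of all coding genes, 6.26% were in a tail-to-tail pair. The share was 12 of 179 listed kidney genes (6.70%) and 26 of 213 listed ER genes (12.2%). Genes with more annotated transcripts were more often in a pair. The share was 3.79% for genes with 1 coding transcript and 12.2% for genes with 4 or more, and both the listed ER genes and the listed kidney genes had a median of 2 coding transcripts where all coding genes had 1. The part of transcript number in the ER share was not tested. With 1 transcript per gene, 14 of the 213 ER genes (6.57%) and 4.65% of all coding genes were in a pair. The 38 listed genes in a pair shared between 11 and 2210 bases, with a median of 274.5. Their overlap was 3′ UTR on both strands for 14 genes, coding on 1 strand for 19, coding on both for 4 and of another kind for 1. Many of these genes reached the partner through only some of their coding transcripts, not all of which are pointed out below.

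None of the 33 genes of TAL salt transport and uromodulin was in a tail-to-tail pair, among them Umod, Slc12a1 (the NKCC2 cotransporter), Kcnj1 (the ROMK channel) and Cldn16 (a tight junction protein of magnesium reabsorption). Over all coding genes the share in a pair was 6.26%, and the difference was not tested. Markers of other nephron segments were in a pair in 2 of 45 cases (4.44%), and kidney development factors in 1 of 32 (3.12%). Among the markers, Slc5a2, the proximal tubule glucose transporter SGLT2, shared 597 bases with BC017158 through 1 of its 3 coding transcripts. The shared bases held 354 bases of Slc5a2 coding sequence and its whole 3′ UTR.

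Inherited kidney disease genes were in a pair in 9 of 69 cases (13%), against 6.26% of all coding genes. They had a median of 4 annotated transcripts, where all coding genes had 2, and the difference in share was not tested. Pkd1 and Tsc2, mutated in polycystic kidney disease and tuberous sclerosis, formed a pair with each other and shared chr17:24595937-24596514, which was 578 bases of 3′ UTR on both strands. This made 59.3% of the 3′ UTR of Pkd1 and 86.5% of that of Tsc2, although only 4.08% and 9.60% of their exon bases. Each of them had 1 coding transcript in the annotation, and both reached the overlap. Genes of nephronophthisis, a disease of the primary cilium, were among the 9. Cep290 shared 776 bases with 4930430F08Rik, including its whole 3′ UTR and 228 coding bases. Invs, which encodes inversin, shared 226 bases with Tex10, 114 of them coding in Tex10. Glis2 shared 74 bases with Pam16, and no coding transcript of Glis2 reached them. In the podocyte genes, Actn4, an actin crosslinker, shared 338 bases of 3′ UTR with Capn12 through 1 of its 4 coding transcripts. Crb2, a polarity protein, shared 113 bases of 3′ UTR with Dennd1a. Slc3a1, a subunit of the cystine transporter, shared 608 bases with Prepl, of which 444 were Slc3a1 coding sequence and 164 its whole 3′ UTR.

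Of 38 sensors and factors of the unfolded protein response, the signalling that follows the build-up of misfolded protein in the ER, 3 were in a pair (7.89%). Over all coding genes the share was 6.26%. Ddit3 shared 68 bases with Mars, 34.5% of its 3′ UTR, through 1 of its 2 coding transcripts. Creb3 shared 133 bases with Gba2, 50.6% of its 3′ UTR, through 1 of its 3 coding transcripts. Ppp1r15a, which encodes the phosphatase subunit GADD34, shared 12 bases with Tulp2. Xbp1, Atf4 and Atf6 were in no tail-to-tail pair.

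Chaperones and disulphide isomerases of the ER were in a pair in 8 of 52 cases (15.4%), against 6.26% of all coding genes. Hspa5 (BiP) and Hsp90b1 (GRP94) were not among the 8. Erp29, a thioredoxin-fold chaperone, had the longest overlap of any listed gene in the deposited annotation, 2210 bases in 5 regions shared with Naa25, of which 1932 were 3′ UTR on both strands. In GENCODE M21 it kept 2210 bases and was passed by Ubxn6, with 4648. Ppib, the prolyl isomerase cyclophilin B, shared 520 bases with the 3′ UTR of the sorting nexin gene Snx22, including 308 of its own coding bases and its whole 3′ UTR. These were 54.2% of all Ppib exon bases. Dnajc1, a membrane-bound J protein, shared 749 bases with coding sequence of Mllt10, but through 1 of its 7 coding transcripts. Manf, a stress-induced secreted factor, likewise reached the partner, Vprbp, with 1 of 6 coding transcripts, whose last exon put 146 bases into Vprbp coding sequence. Fkbp10, a collagen chaperone, shared 193 of its coding bases with Nt5c3b. Txndc11 shared 73 bases with Snn, through 1 of its 6 coding transcripts, and Pdia6 shared 50 with Atp6v1c2, all 3′ UTR. Atp2a2, the calcium pump SERCA2, shared 11 bases with Anapc7 through 1 of its 3 coding transcripts.

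**Figure D4:**
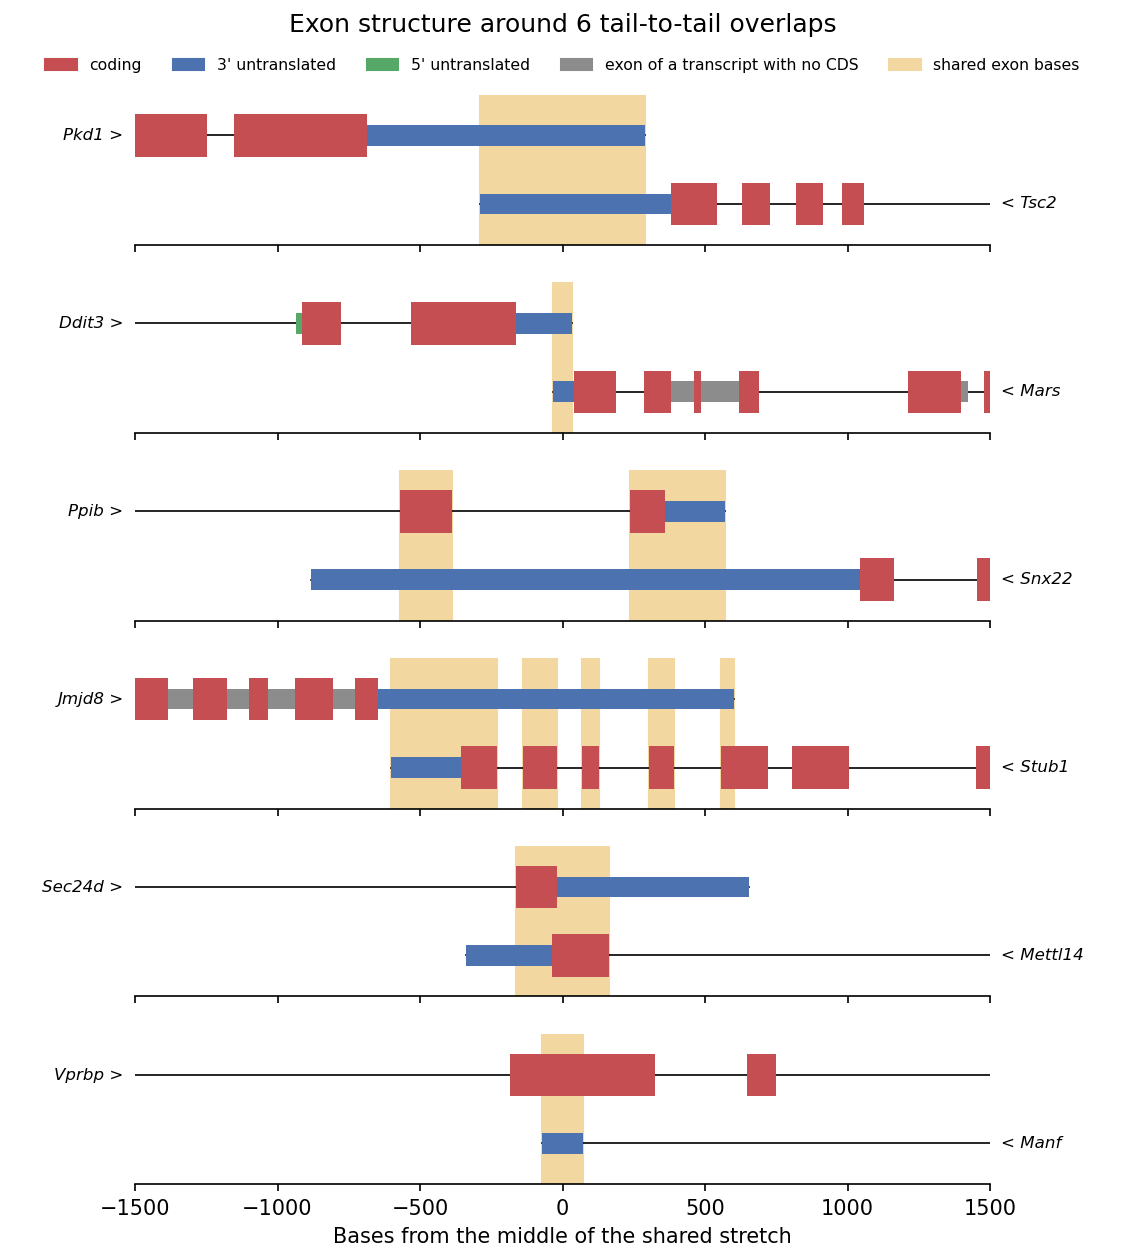
Exons of 6 tail-to-tail pairs within 1500 bases of the middle of the shared stretch (horizontal axis, bases, to scale), with the plus gene above the minus gene. Tall boxes are coding and low boxes untranslated or from a transcript with no CDS, and shading marks the shared exon bases, from 68 bases of 3′ UTR in Ddit3 with Mars to 684 bases in 5 regions in Jmjd8 with Stub1.

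In ER-associated degradation, which extracts misfolded proteins for the proteasome, 7 of 53 genes were in a pair (13.2%), against 6.26% of all coding genes. Stub1, the ubiquitin ligase CHIP, shared 684 bases in 5 regions with Jmjd8, of which 435 were Stub1 coding sequence and 249 its whole 3′ UTR. Vcp, the ATPase p97 that pulls substrates out of the membrane, shared 352 of its coding bases with 1700022I11Rik. Its cofactors Ubxn6 and Ubxn8 shared 620 bases with Chaf1a and 209 bases with Ppp2cb. Syvn1, the ubiquitin ligase HRD1, shared 83 bases of 3′ UTR with Mrpl49 through 4 of its 5 coding transcripts. Jkamp shared 129 bases with Ccdc175, of which 115 were 3′ UTR on both strands.

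Of 71 genes of the translocon, of glycosylation and of export from the ER, 8 were in a pair (11.3%), against 6.26% of all coding genes. Sec61a2, a translocon alpha subunit, shared 909 bases with Nudt5, of which 61 were Sec61a2 coding sequence and 848 were 3′ UTR on both strands. Ost4, the smallest subunit of the oligosaccharyltransferase, shared 677 bases with Agbl5, which were 53.2% of its exon bases. Ergic2 shared 837 bases with Far2 through 2 of its 5 coding transcripts. Tmed5, a p24 cargo receptor, shared 395 with Mtf2, 358 of them coding in Mtf2, through 1 of 6 Tmed5 coding transcripts. Sec24d shared 323 bases with Mettl14, through 1 Mettl14 transcript. Surf4, a cargo receptor, shared 144 bases with its neighbour Surf2, Srpr, the signal recognition particle receptor, shared 50 with Fam118b, and Kdelr3 shared 33 with Ddx17, all of them 3′ UTR on both strands. Surf4 reached Surf2 with 1 of its 3 coding transcripts.

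The genes that the study itself listed in its enriched pathways, chosen on these samples, included 7 in a pair of 50 (14.0%). Over all coding genes the share was 6.26%, and the difference was not tested. The 7 were Atp2a2, Kdelr3, Manf, Pdia6, Surf4, Syvn1 and Txndc11. Their overlaps ranged from 11 bases in Atp2a2 to 146 bases in Manf, all under the median of 268 bases over all pairs. In none of the 7 were more than 4.39% of the exon bases shared.

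**Figure D5:**
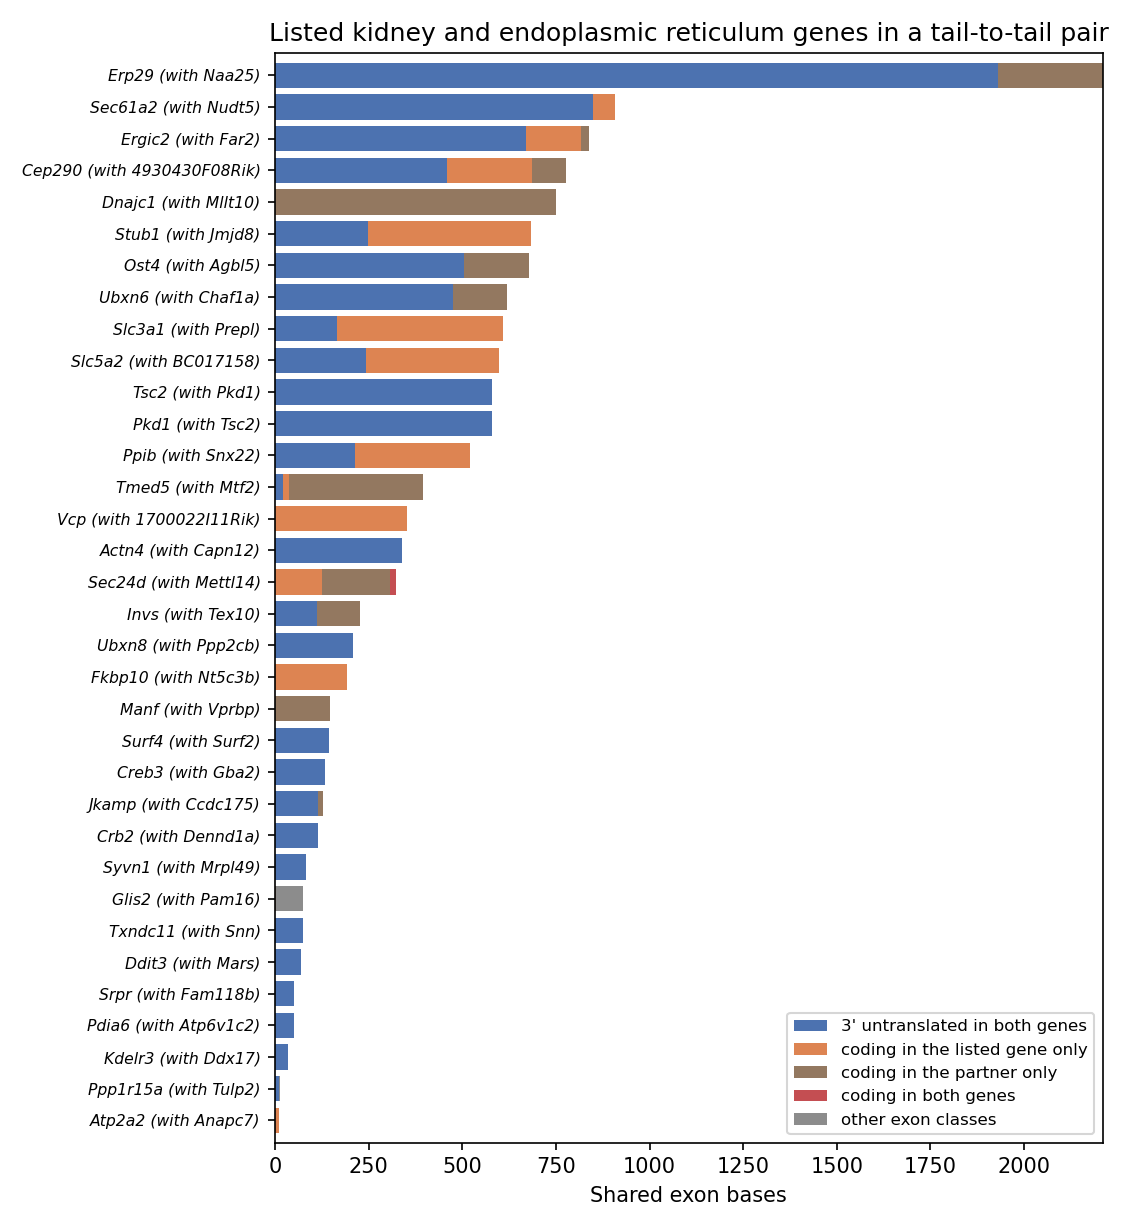
Exon bases shared with the tail-to-tail partner (horizontal axis) for 34 listed kidney or endoplasmic reticulum genes in a pair, coloured by class. Erp29 with Naa25 stands at the top with 2210 bases, mostly 3′ UTR in both genes, and Atp2a2 with Anapc7 at the bottom with 11.

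Tail-to-tail pairs were spread unevenly over the chromosomes. The share of coding genes in a pair was lowest on the X chromosome, at 3.00%, apart from the Y chromosome, where 0 of 375 genes were in a pair. It was highest among the autosomes on chromosome 8, at 8.58%. With a later annotation of the same assembly, GENCODE M21, 672 of the 715 pairs (94.0%) were again tail to tail by gene ID. Of the pairs that shared only 3′ UTR, 96.4% were so, and of those coding on both strands, 82.2%. Among the listed genes, Sec24d with Mettl14, Ubxn8 with Ppp2cb and Atp2a2 with Anapc7 shared no exon base in GENCODE M21, and Kdelr3 with Ddx17 shared 4 bases. Other listed overlaps were longer there, with 4648 bases for Ubxn6 with Chaf1a, 1084 for Stub1 with Jmjd8, 825 for Ppib with Snx22 and 455 for Glis2 with Pam16.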

How the data were processed

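The authors sequenced RNA of 3 WT and 3 C150S libraries of mTAL cells as paired reads of 101 bases and counted them per gene name over exon rows with htseq-count in union mode, which drops a read that touches more than 1 gene. The submitters' processing notes name CASAVA 1.8, STAR 2.3.0, HTSeq and limma, and mm10. The strand setting of the counting is not given in the sources used here. The file used was the deposited annotation, whose values are 1-based start and end positions (columns of per-sample values: 0). Read counts were not analysed here.

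Exons of a gene name were merged over transcripts. In all, 119 coding names with several gene IDs were left out. Overlaps were computed in Python 3.11.15 with numpy 2.4.6, and figures in matplotlib 3.10.9. The steps for overlap, arrangement and class of shared bases were tested on simulated data, where 1614 of 1614 pairs were recovered. Steps that read sequence, hexamers, stop codons and frames were not part of that test. Bases came from GENCODE M21 transcripts placed by exon position, which covered 99.3% of exon bases. Of 50766 stop codon rows read, 85.1% were TAA, TAG or TGA, and only these were used for stops and frames.

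The genes named were listed genes in a pair, the 10 longest pairs, the 10 with most bases coding on both strands, the 5 shortest and any gene with 3 or more partners, of which there were 0. Some pairs under these rules are not reported here. Members and lists were chosen with earlier results of these data known. Not found as coding names with 1 gene ID were Coq8b, Rtcb, Cnih1, Sec12 and Tango1.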

Additional observations from a re-analysis of the deposited data

How the results depend on the processing

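Of 62 values recomputed under 10 alternatives, 56 stayed within 1.5 times the value reported. With 1 transcript per gene, the one with the longest CDS, shared exon bases fell to 206701, pairs with coding sequence on at least 1 strand to 230, pairs coding on both strands to 35 and listed ER genes in a pair to 14, since fewer exons enter each gene. When a pair had to share at least 1 read length of bases in total, the median shared length became 472. The pairs that shared only 3′ UTR on both strands then numbered 163, since short overlaps were left out. The number of pairs ranged from 517 under that minimum to 831 with GENCODE M21. No paired analysis was possible because the annotation is common to all libraries and no result comes from a test. The annotation holds no expression values, so which of the overlapping transcripts the cells made is not known from it, and a 3′ end annotated too short or too long moves an overlap by as many bases.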
